A study of Mus musculus with 16 samples.

Results

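This is an account of 36 genes that mark the structural cells of the heart, followed in RNA of sorted Foxp3-positive regulatory T cells (Tregs), which hold immune responses in check. The genes were chosen by name, but with earlier results of these data known. They comprise 19 fibroblast and matrix genes, 4 endothelial genes and 13 cardiomyocyte genes out of the 19195 genes measured. Every library came from Foxp3-GFP mice, a reporter strain in which Foxp3-expressing cells carry green fluorescent protein. The animals were 8 weeks old and were studied 7 days after myocardial infarction (MI), and no uninjured heart was among the groups. Tregs were taken from the injured heart or from its draining node, the mediastinal lymph node (MLN), and were separated into CCR8+ and CCR8- cells, CCR8 being a chemokine receptor carried by many Tregs of tissues. Sorting by tissue and CCR8 gave 4 groups of 4 libraries each, and a library held about 100 cells after magnetic sorting followed by flow sorting. The sources used here do not say whether separate mice gave the libraries of a group, so the p-values measure the spread between libraries, which may be technical.

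Fibroblasts build the collagen and proteoglycan matrix of the heart, and after an infarct they multiply and lay down the scar. Endothelial cells line the vessels and hold together through junction proteins, whereas cardiomyocytes contract through the troponins, myosins and titin of the sarcomere. T cells are not known as a source of most matrix or sarcomere proteins, and which cells gave this RNA was not tested. In bulk RNA, fewer cells of a type and less RNA per cell cannot be told apart.

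Values are log2(FPKM + 1) throughout, FPKM being expression per length of transcript and scaled to the size of the library. Group values are means ± SD over 4 libraries, and differences are log2 differences ± SE. Read numbers are not known, and the values carry no counting error. For genes listed at 0 in a group, a difference depends in size on the added 1. Differences were tested with limma over the 10369 genes that reached an FPKM of 1 in at least 4 libraries, two-sided, and genes with a Benjamini-Hochberg adjusted p below 0.05 were called. Of the 36 genes, 23 were tested (14 fibroblast, 2 endothelial and 7 cardiomyocyte genes). Most of these passed the minimum through the heart libraries, so counts are also given for all 36 genes with no minimum. The 13 genes below the minimum were Col5a1, Col5a2, Col6a1, Pdgfra, Thbs2, Cdh5, Kdr, Myh6, Myh7, Mb, Myl3, Nppa and Nppb.

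The labelled cell type was checked with 12 T cell and Treg genes, all of them above 0 in all 16 libraries, with a mean level of 8.02 ± 0.49 (CCR8-) and 7.98 ± 0.20 (CCR8+) in the heart and of 7.84 ± 0.13 (CCR8-) and 8.25 ± 0.19 (CCR8+) in the node. A pair of heart libraries stood apart in the genes described here. Heart CCR8- library 3 was the highest of the 8 heart libraries for 13 of the 19 fibroblast genes and for 4 of 4 endothelial genes, and it had the lowest heart mean of the T cell and Treg genes, at 7.33 against 7.81 to 8.49 in the others. Heart CCR8+ library 1 was lowest, or tied for lowest, for 15 of the 18 fibroblast genes seen in any heart library, for 4 of 4 endothelial genes and for 11 of the 12 cardiomyocyte genes seen there. Of these 11, all but Myl2 were ties at 0 with other heart libraries. The comparison of the heart groups is therefore also given without them. As these libraries were picked on the levels of these same genes, leaving them out brings the heart groups closer in fibroblast and endothelial genes largely by that choice.

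The 36 genes together took 0.0623 to 1.11% of the summed FPKM of a heart CCR8- library and 0.00419 to 0.0877% of a heart CCR8+ library. In the node they took 0.00206 to 0.00482% of an MLN CCR8- library and 0.00101 to 0.00302% of an MLN CCR8+ library. The highest share, 1.11%, belonged to heart CCR8- library 3 and the lowest heart share, 0.00419%, to heart CCR8+ library 1. The heart CCR8+ range thus reached down into that of MLN CCR8- through this single library.

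**Figure D1:**
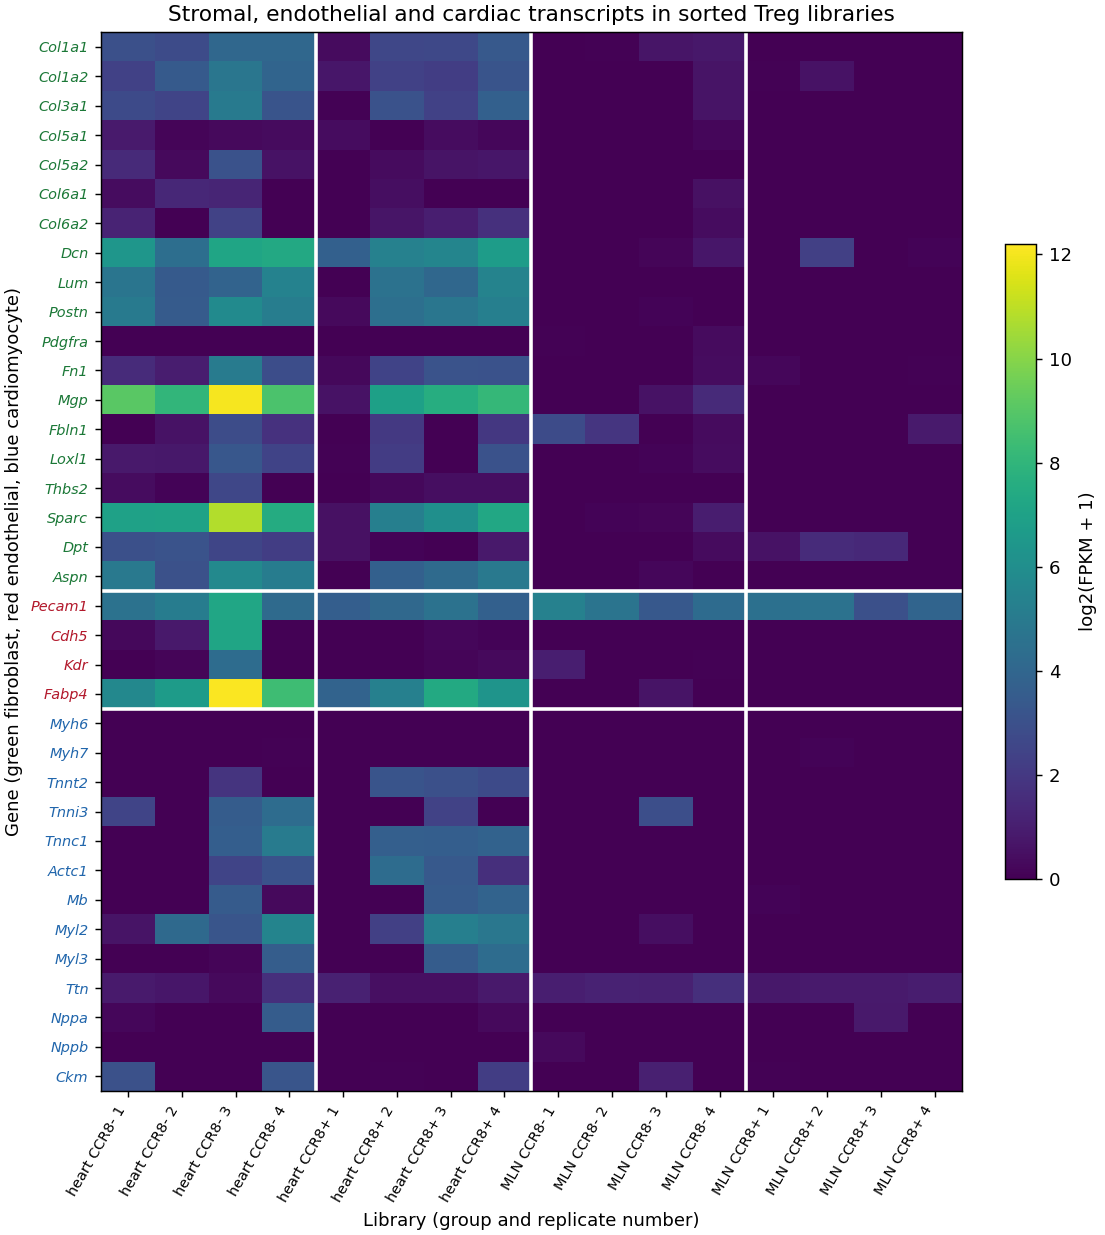
Level of each of the 36 genes (rows, by class) in each of the 16 libraries (columns, by group), as log2(FPKM + 1) on the colour scale. Mgp, Sparc, Fabp4 and Dcn are high in most heart libraries, heart CCR8- library 3 is bright across the endothelial rows, and heart CCR8+ library 1 is dark across most rows.

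Fibroblast and matrix genes were widely seen in the heart and sparse in the node. In the heart they averaged 3.21 ± 0.83 in CCR8- and 2.10 ± 1.19 in CCR8+ Tregs, and in the node 0.20 ± 0.16 in CCR8- and 0.10 ± 0.09 in CCR8+ Tregs. By library the class mean was 2.89, 2.40, 4.35 and 3.20 in heart CCR8- libraries 1 to 4 and 0.41, 2.47, 2.38 and 3.17 in heart CCR8+ libraries 1 to 4. Heart CCR8+ library 1 lay below the highest MLN library, which stood at 0.44, and the other 7 heart libraries lay above every MLN library. Of the 19 genes, 16 to 18 were above 0 in a heart CCR8- library and 11 to 17 in a heart CCR8+ library. Heart means exceeded MLN means for 18 of the 19 genes, Pdgfra being the exception.

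**Figure D2:**
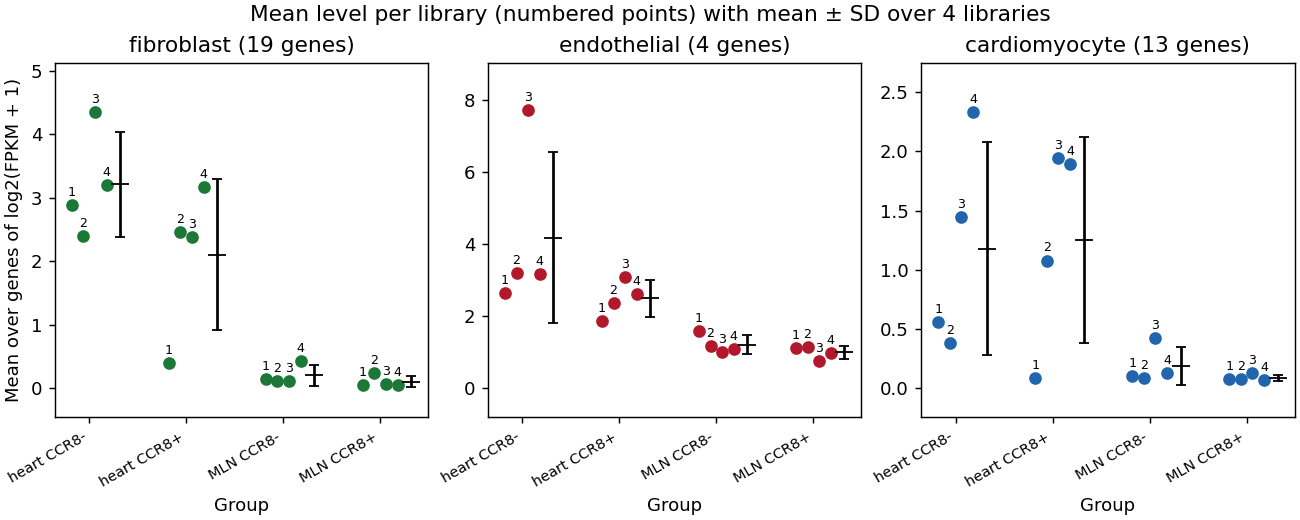
Mean log2(FPKM + 1) over the 19 fibroblast, 4 endothelial and 13 cardiomyocyte genes, with 1 point per library, by group, and the group mean with its SD (n = 4). The endothelial point of heart CCR8- library 3 stands at 7.71, above the other heart libraries, and heart CCR8+ library 1 is lowest of the heart libraries in all 3 classes.

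Matrix Gla protein, Mgp, is a secreted inhibitor of calcification made by fibroblasts and vascular cells (GRCm38 chr6:136872435-136875823, minus strand). Mgp stood at 9.07, 8.04, 12.03 and 8.73 in heart CCR8- libraries 1 to 4, at 0.60, 6.92, 7.62 and 8.13 in heart CCR8+, at 0, 0, 0.59 and 1.47 in MLN CCR8-, and at 0 in all 4 MLN CCR8+ libraries. It was the highest of the fibroblast genes in 7 of 8 heart libraries, and only heart CCR8+ library 1 fell into the range of the node. The group means were 9.47 ± 1.76, 5.82 ± 3.51, 0.51 ± 0.69 and 0.

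Sparc encodes a collagen-binding matricellular glycoprotein of remodelling tissue (chr11:55394500-55423183, minus strand). Its levels were 6.99, 7.03, 10.80 and 7.51 in heart CCR8-, 0.57, 5.27, 6.08 and 7.32 in heart CCR8+, 0, 0.13, 0.19 and 0.96 in MLN CCR8-, and 0 throughout MLN CCR8+. As with Mgp, the heart and MLN libraries were separate apart from heart CCR8+ library 1.

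The small leucine-rich proteoglycans Dcn (decorin), Lum (lumican) and Aspn (asporin) bind collagen and shape its fibrils. Dcn (chr10:97479609-97518143, plus strand) stood at 6.42, 4.39, 7.16 and 7.38 in heart CCR8-, at 3.76, 5.36, 5.54 and 6.74 in heart CCR8+, at 0, 0, 0.19 and 0.76 in MLN CCR8-, and at 0, 2.33, 0 and 0.11 in MLN CCR8+. All 8 heart libraries lay above all 8 MLN libraries, including heart CCR8+ library 1, where Dcn was the highest fibroblast gene. Lum was at 4.72, 3.44, 3.91 and 5.39 in heart CCR8- and at 0, 4.60, 4.07 and 5.45 in heart CCR8+, and was listed at 0 in all 8 MLN libraries. Aspn was at 4.95, 3.0, 5.74 and 5.13 in heart CCR8- and at 0, 3.72, 4.21 and 4.94 in heart CCR8+, and 1 MLN library, MLN CCR8- library 3, had it above 0, at 0.23. Lum and Aspn were thus seen in 7 of the 8 heart libraries and missing from heart CCR8+ library 1.

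Periostin, Postn, is a matricellular protein that activated fibroblasts secrete after injury (chr3:54361109-54391037, plus strand). Its level was 5.05, 3.48, 5.83 and 5.15 in heart CCR8- and 0.31, 4.44, 4.81 and 5.26 in heart CCR8+, and 0.13 in MLN CCR8- library 3, with the other 7 MLN libraries at 0. Every heart library was therefore above every MLN library for Postn, as it was for Dcn and Col1a2, and for none of the other 16 fibroblast genes. The share of all genes with this separation over both CCR8 groups was not counted.

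Type I collagen, the main fibrous collagen of scar, is built from the chains Col1a1 and Col1a2. Col1a1 was at 2.99, 2.78, 4.08 and 4.05 in heart CCR8- and at 0.37, 2.59, 2.62 and 3.40 in heart CCR8+, with 0, 0.07, 0.68 and 0.77 in MLN CCR8- libraries and 0 in all 4 MLN CCR8+ libraries. Col1a2 was at 2.35, 3.47, 4.80 and 3.91 in heart CCR8- and at 0.72, 2.37, 2.23 and 3.15 in heart CCR8+, with 0, 0, 0 and 0.64 in MLN CCR8- and 0.08, 0.62, 0 and 0 in MLN CCR8+ libraries. The FPKM ratio of Col1a1 to Col1a2 ran from 0.451 to 1.70 over the 8 heart libraries and was above 1 in 5 of them. Type III collagen, Col3a1, was at 2.52 to 4.96 in heart CCR8-, at 0.08 to 3.76 in heart CCR8+ and at most at 0.64 in the node.

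The remaining matrix genes were lower or scattered. Fibronectin, Fn1, ran from 1.0 to 5.07 in heart CCR8- and from 0.28 to 3.14 in heart CCR8+, with 0.40 as its highest MLN level. Loxl1, an enzyme that cross-links elastin, ran from 0.79 to 3.33 in heart CCR8- and from 0 to 3.09 in heart CCR8+. The type V collagen chain Col5a2 reached 3.07, the matricellular protein Thbs2 reached 2.59 and the type VI collagen chain Col6a2 reached 2.39, each of them in heart CCR8- library 3. Col6a1 reached 1.36 and Col5a1 reached 0.88 in the heart library where each was highest. The basement membrane glycoprotein Fbln1 overlapped between the tissues, at 2.77 and 1.86 in MLN CCR8- libraries 1 and 2 and at 0 to 2.82 in the heart.

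Pdgfra, the growth factor receptor commonly used to mark cardiac fibroblasts, was listed at 0 in all 8 heart libraries. It was above 0 in 3 MLN libraries only, at most at 0.37. A receptor that defines the cell type was therefore at 0 in libraries where its matrix products were among the clear signals.

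Heart CCR8- Tregs were higher than MLN CCR8- Tregs in 11 of the 23 genes tested and lower in 0, where 2.95% of all genes tested were called higher and 1.61% lower. The 11 were 10 fibroblast genes (Mgp, Sparc, Dcn, Postn, Aspn, Lum, Col1a1, Col1a2, Col3a1 and Dpt) and Fabp4, and the same 11 calls were made over 17229 genes with no minimum, where 1.13% of genes were called higher. Among the largest differences were Mgp at 8.96 ± 1.17 (limma adjusted p = 0.00019), Sparc at 7.76 ± 1.05 (limma adjusted p = 0.00028) and Dcn at 6.10 ± 0.73 (limma adjusted p = 8.74e-05). Those of Postn (4.85 ± 0.82), Aspn (4.64 ± 0.82), Lum (4.36 ± 0.84), Col1a2 (3.47 ± 0.59), Col3a1 (3.19 ± 0.69) and Col1a1 (3.10 ± 0.60) had limma adjusted p-values from 0.00158 to 0.0111. Fn1 differed by 2.52 ± 0.75 and was not called (limma adjusted p = 0.0614). Over all 36 genes, the 4 heart libraries lay above the 4 MLN libraries for 17, where 3.42% of all genes did so. The median difference was 2.63 over the 19 fibroblast genes and 0 over all 17229 genes.

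Heart CCR8+ Tregs were likewise higher than MLN CCR8+ Tregs in 11 of the 23 genes tested and lower in 0, against 5.82% of all genes called higher and 3.97% called lower. These were Mgp, Sparc, Dcn, Postn, Aspn, Lum, Col1a1, Col1a2, Col3a1, Fabp4 and the troponin gene Tnnt2. Mgp differed by 5.82 ± 1.17 (limma adjusted p = 0.00308), Sparc by 4.81 ± 1.05 (limma adjusted p = 0.00582) and Dcn by 4.74 ± 0.73 (limma adjusted p = 0.00029). Postn (3.71 ± 0.82), Lum (3.53 ± 0.84) and Aspn (3.22 ± 0.82) followed, with limma adjusted p-values of 0.00646, 0.0103 and 0.0163. The collagen differences were smaller, at 2.24 ± 0.60 for Col1a1 (limma adjusted p = 0.0204), 2.32 ± 0.69 for Col3a1 (limma adjusted p = 0.0379) and 1.94 ± 0.59 for Col1a2 (limma adjusted p = 0.0423). With no minimum, 7 of the 36 were called, against 2.75% of all genes, and the 4 heart libraries lay above the 4 MLN libraries for 9 of the 36, against 6.06%. The calls of Dcn, Lum, Postn, Mgp, Sparc and Fabp4 held in every alternative in which they were tested, and those of Col1a1, Col1a2, Col3a1, Aspn and Tnnt2 did not. The count fell to 7 without heart CCR8+ library 2, to 6 without library 3, to 6 without library 4 and to 7 without MLN CCR8+ library 4. Without heart CCR8- library 3 and heart CCR8+ library 1 it was 14, and the count between the CCR8- groups was 11.

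Dermatopontin, Dpt, a small matrix protein that binds decorin and collagen, was the gene that differed with CCR8 in the heart (chr1:164796644-164824266, plus strand). It was at 2.99, 3.12, 2.53 and 2.20 in heart CCR8- libraries 1 to 4, and at 0.53, 0.10, 0.00 and 0.81 in heart CCR8+ libraries. In the node it was at 0, 0, 0 and 0.34 in CCR8- and at 0.59, 1.48, 1.39 and 0 in CCR8+. All 4 heart CCR8- libraries lay above all the others, whereas the heart CCR8+ libraries overlapped both MLN groups. The promoters of Dpt and of Sparc are shown because Sparc stood for the genes high in both heart groups and Dpt for the departure from them. Both are RefSeq sequences (GRCm38.p6), written 5′ to 3′ from 250 bases before to 50 bases after the annotated start, at chr1:164796413-164796712 on the plus strand for Dpt and at chr11:55420031-55420330 on the minus strand for Sparc. Capitals mark the TATA motif TATAAA and the E-box CAGCTG, and where capitals run on in Dpt the E-box abuts the TATA motif.
Dpt: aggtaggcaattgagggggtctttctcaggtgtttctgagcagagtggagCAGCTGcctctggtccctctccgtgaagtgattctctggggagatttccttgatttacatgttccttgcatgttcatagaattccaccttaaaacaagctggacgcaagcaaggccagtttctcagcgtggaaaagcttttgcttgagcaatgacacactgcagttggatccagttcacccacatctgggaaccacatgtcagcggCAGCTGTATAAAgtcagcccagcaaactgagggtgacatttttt
Sparc: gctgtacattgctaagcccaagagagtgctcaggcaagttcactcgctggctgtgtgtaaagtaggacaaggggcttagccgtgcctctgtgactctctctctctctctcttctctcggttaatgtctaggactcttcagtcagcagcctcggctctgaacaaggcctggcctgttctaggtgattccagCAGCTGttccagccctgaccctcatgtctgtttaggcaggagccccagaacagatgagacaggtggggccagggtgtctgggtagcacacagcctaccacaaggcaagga
Both promoters held the E-box and Dpt alone of the pair held TATAAA. In Dpt, TATAAA and the E-box that abuts it lie after the annotated start, not before it. The other E-box of Dpt and that of Sparc lie before the start. Whether TATAAA acts as a promoter element there was not tested. Searched on both strands, TATAAA was present in 13.6% and CAGCTG in 16.3% of 32817 RefSeq promoters of this length, and the CArG box, by its name, in 1.63% of them and in neither of the pair. Promoter entries were matched for 26 of the 36 genes.

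Heart CCR8+ Tregs were lower than heart CCR8- Tregs in 1 of the 23 genes tested, Dpt, and higher in 0, against 0.0964% of all genes called lower and 0.270% called higher. The mean of Dpt was 0.36 ± 0.38 in heart CCR8+ and 2.71 ± 0.43 in heart CCR8-, a difference of -2.35 ± 0.46 (limma adjusted p = 0.0301) and a ratio of 0.196 of the values + 1. It was the only one of the 36 whose heart CCR8+ libraries all lay below the heart CCR8- libraries, where 2.32% of all genes with no minimum did so. Without heart CCR8- library 1 or 2, or heart CCR8+ library 1, 2 or 3, the limma adjusted p of Dpt was 0.0682, 0.0748, 0.106, 0.104 and 0.112, and the difference stayed between -2.52 and -2.21 whichever of the heart libraries was left out. In the node Dpt differed by 0.78 ± 0.46 (limma adjusted p = 0.405), and the interaction of tissue and CCR8 was -3.13 ± 0.65 (limma adjusted p = 0.0351), where 0.116% of genes were called lower and 0.289% higher. The interaction was not called in 12 of the 16 fits that left out a library. Between heart CCR8- and MLN CCR8- Tregs Dpt differed by 2.63 ± 0.46 (limma adjusted p = 0.00224), a ratio of 6.17 of the values + 1, and between the CCR8+ groups by -0.50 ± 0.46 (limma adjusted p = 0.554).

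The other matrix genes did not pass the test between the heart groups. The mean of heart CCR8+ was below that of heart CCR8- for 18 of the 19 fibroblast genes, with a median difference of -0.92, while the median over all 17229 genes was 0. Mgp differed by -3.65 ± 1.17 (limma adjusted p = 0.233), by -1.91 without heart CCR8+ library 1 and by -1.06 without that library and heart CCR8- library 3. Sparc differed by -3.27 ± 1.05 (limma adjusted p = 0.234), by -1.86 without heart CCR8+ library 1 and by -0.95 without both libraries. Of the 19 genes, without heart CCR8+ library 1 there were 14 lower and 4 higher, with a median of -0.40, and without heart CCR8- library 3 again 14 and 4, with a median of -0.50. Without both, 10 were lower and 8 higher, with a median of -0.07. Both were picked on the levels of these genes, so a smaller difference without them was largely set by the choice and cannot show how firm the difference is. Lum, for example, changed sign without heart CCR8+ library 1 (0.34) and Postn without both libraries (0.28). In the node, 0 of the 23 genes differed between CCR8+ and CCR8- Tregs in limma, where 2.04% of all genes were called higher and 2.09% lower, and 0 of the 23 had an unadjusted p under 0.05.

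**Figure D3:**
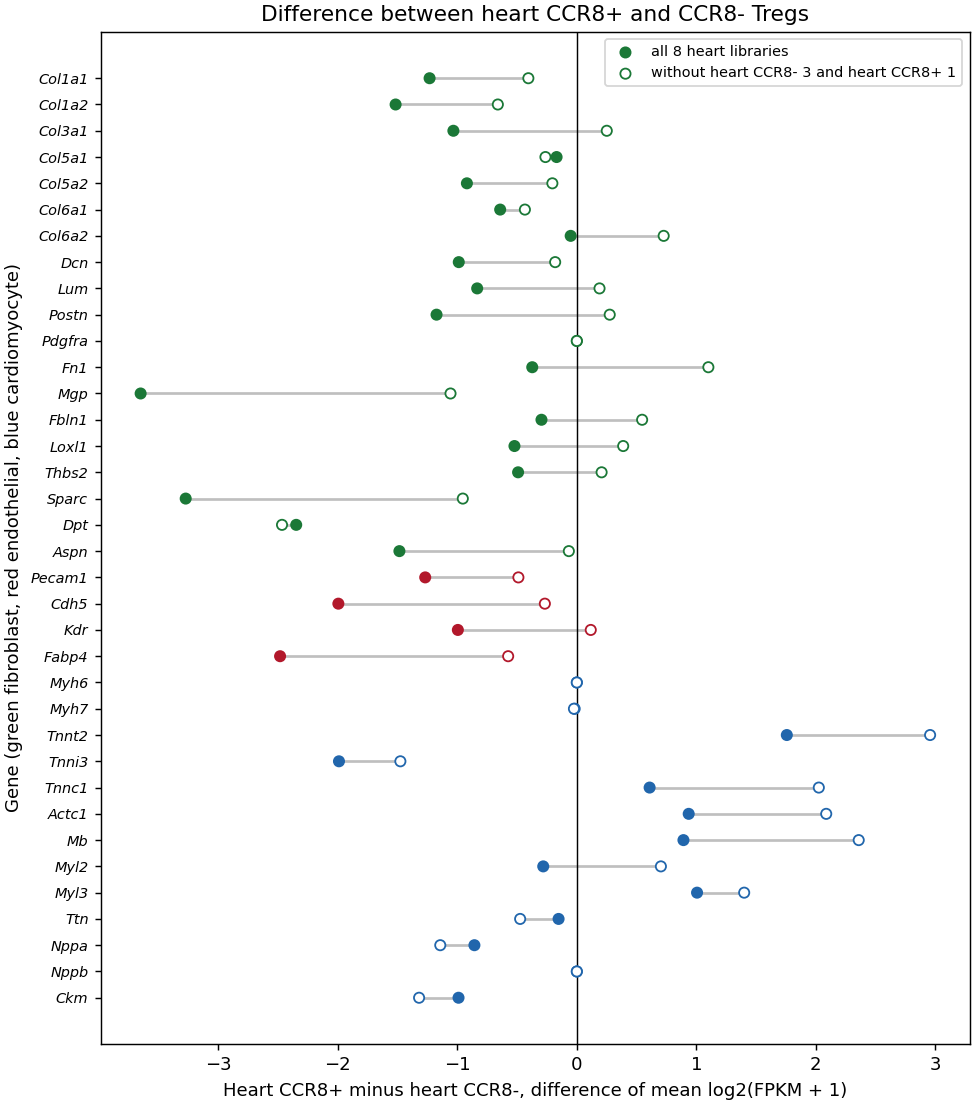
Difference in mean log2(FPKM + 1), heart CCR8+ minus heart CCR8-, for each gene, with all 8 heart libraries and without heart CCR8- library 3 and heart CCR8+ library 1. Of the fibroblast genes 18 of 19 lie below 0 with all libraries and 10 of 19 without both, and Dpt stays near -2.4 either way. Both libraries were picked on the levels of these genes, which by itself draws most fibroblast differences towards 0.

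The 4 endothelial genes behaved unlike each other. Their mean was 4.18 ± 2.37 in CCR8- and 2.49 ± 0.51 in CCR8+ Tregs of the heart, and 1.21 ± 0.27 in CCR8- and 1.0 ± 0.18 in CCR8+ Tregs of the node. Without heart CCR8- library 3 the mean of heart CCR8- was 3.0, and without heart CCR8+ library 1 that of heart CCR8+ was 2.70. Pecam1 (CD31, chr11:106654217-106750628, minus strand), an adhesion molecule of endothelium that leukocytes also carry, was at 4.58, 5.14, 7.24 and 4.24 in heart CCR8-, at 3.63, 4.12, 4.61 and 3.76 in heart CCR8+, at 5.37, 4.68, 3.36 and 4.27 in MLN CCR8-, and at 4.49, 4.59, 2.99 and 3.93 in MLN CCR8+. The 4 groups overlapped, and neither heart against MLN difference was called (0.88 ± 0.59, limma adjusted p = 0.457, in CCR8- and 0.03 ± 0.59, limma adjusted p = 0.986, in CCR8+).

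VE-cadherin, Cdh5, the junction protein that defines endothelium, was at 0.28, 0.82, 7.18 and 0.07 in heart CCR8-, at 0, 0.02, 0.23 and 0.12 in heart CCR8+, and at 0 in all 8 MLN libraries (chr8:104101625-104144511, plus strand). The VEGF receptor Kdr was at 0, 0.15, 4.33 and 0 in heart CCR8-, at 0, 0.04, 0.15 and 0.31 in heart CCR8+, at 1.03, 0, 0 and 0.07 in MLN CCR8-, and at 0 in all 4 MLN CCR8+ libraries. Both were high in heart CCR8- library 3 and under 1 in the other 7 heart libraries, and neither reached the minimum for a test.

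Fabp4, a fatty acid carrier of capillary endothelium that adipocytes and macrophages also express, was, like Pecam1, above 0 in all 8 heart libraries (chr3:10204088-10208576, minus strand). It was at 5.67, 6.70, 12.11 and 8.39 in heart CCR8-, at 3.90, 5.30, 7.41 and 6.33 in heart CCR8+, at 0.66 in MLN CCR8- library 3 and at 0 in the other 7 MLN libraries. Every heart library lay above every MLN library. The difference was 8.05 ± 0.97 between the CCR8- groups (limma adjusted p = 9.18e-05) and 5.73 ± 0.97 between the CCR8+ groups (limma adjusted p = 0.000754). Between heart CCR8+ and heart CCR8- Fabp4 differed by -2.48 ± 0.97 and was not called (limma adjusted p = 0.33), and the difference was -1.19 without heart CCR8- library 3 and -0.57 without that library and heart CCR8+ library 1.

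Fabp4 and Cdh5 thus parted in 7 of 8 heart libraries, Fabp4 standing at 3.90 or more where Cdh5 was under 1. Markers of the other cell types that express Fabp4 differed among those libraries. The mean of 12 macrophage and monocyte genes was 2.48 to 3.80 in heart CCR8- and 0.37, 5.87, 2.58 and 4.03 in heart CCR8+ libraries 1 to 4, against 0.25 to 1.28 in the node. Of the 8 macrophage genes tested, 6 were called higher in heart CCR8- than in MLN CCR8- Tregs, against 2.95% of all genes. Between heart CCR8+ and MLN CCR8+ Tregs 3 were called higher, against 5.82%. In both comparisons 0 were lower, and 0 were called with CCR8 in either tissue. Most of these 8 genes passed the minimum through the heart libraries, so their calls against the node are not evenly set against the share of all genes. In heart CCR8+ library 1, the library lowest in both, 9 of the 12 macrophage genes were above 0, with Lyz2, the macrophage lysozyme, at 1.44 and the complement gene C1qa at 0.28. Their summed FPKM ran from 315 to 909 in heart CCR8- and from 4.26 to 2275 in heart CCR8+, and their part in the Fabp4 level was not tested. The adipocyte gene Adipoq was at 2.45 in heart CCR8+ library 1, at 2.99 in heart CCR8+ library 4 and at 0 in the other 6 heart libraries.

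Heart CCR8- library 3 held a fuller vascular set than the endothelial members alone. All 22 further endothelial genes were above 0 there, with a mean of 5.58, against 8 to 18 genes and means of 0.63 to 2.27 in the other heart libraries. The lowest of them there were Vwf at 0.09 and Erg at 0.30. Smooth muscle and pericyte genes averaged 3.16 against 0.25 to 1.05. Highest among these 11 genes were the pericyte regulator Rgs5 at 8.00 and the adhesion molecule Mcam at 7.60. Others were at or near 0 or low there, with Des at 0, Cspg4 at 0.05, Notch3 at 1.17, Myh11 at 1.33 and Pdgfrb at 1.46. The basement membrane collagen Col4a1 stood at 7.38 there and at most at 1.39 in the other heart libraries. The claudin Cldn5 of tight junctions stood at 6.36 there and at most at 0.43 elsewhere in the heart.

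Cardiomyocyte genes were the most patchy class. Their mean was 1.18 ± 0.90 in CCR8- and 1.25 ± 0.87 in CCR8+ Tregs of the heart, and 0.19 ± 0.16 in CCR8- and 0.09 ± 0.03 in CCR8+ Tregs of the node. By library the mean was 0.56, 0.38, 1.44 and 2.33 in heart CCR8- and 0.09, 1.08, 1.94 and 1.89 in heart CCR8+. The highest of these was heart CCR8- library 4, not library 3, which was highest for the other classes, and in heart CCR8+ library 1 titin alone of the 13 genes was above 0.

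Of the thin filament genes, Tnnc1 (cardiac troponin C, the calcium sensor) was at 0, 0, 3.64 and 5.09 in heart CCR8- and at 0, 3.68, 3.64 and 3.84 in heart CCR8+. Actc1 (cardiac actin) was at 0, 0, 2.52 and 3.08 in heart CCR8- and at 0, 4.30, 3.41 and 1.62 in heart CCR8+. Both were at 0 in all 8 MLN libraries and in the same 3 heart libraries. Tnnt2, the tropomyosin-binding troponin T, was at 0, 0, 1.84 and 0 in heart CCR8- and at 0, 3.15, 2.96 and 2.75 in heart CCR8+, with 0 in all MLN libraries. The inhibitory troponin Tnni3 ran the other way, at 2.52, 0, 3.53 and 4.32 in heart CCR8- and at 0, 0, 2.41 and 0 in heart CCR8+, and MLN CCR8- library 3 had it at 2.91. All 3 troponin genes were above 0 together in library 3 of both heart groups, and the other heart libraries held at most a pair of them. Reads of Actc1 and of its close relative in skeletal muscle may be hard to separate, so its values are uncertain.

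Among the thick filament and other sarcomere genes, Myl2, the ventricular regulatory light chain, was the highest on average. Myl2 was at 0.63, 4.19, 3.24 and 5.49 in heart CCR8- and at 0, 2.33, 5.27 and 4.82 in heart CCR8+, with 0.43 in MLN CCR8- library 3 and 0 in the other 7 MLN libraries. The essential light chain Myl3 was at 0, 0.04, 0.18 and 3.62 in heart CCR8- and at 0, 0, 3.55 and 4.31 in heart CCR8+, and at 0 in all 8 MLN libraries. Its heart values were either 0.18 or less, or 3.55 or more, and Myl2 stood at 4.82 or more wherever Myl3 was high. Ttn, the giant spring protein titin, was at 0.89, 0.73, 0.30 and 1.63 in heart CCR8-, at 1.11, 0.49, 0.52 and 0.81 in heart CCR8+, at 1.03, 1.16, 1.10 and 1.64 in MLN CCR8-, and at 0.78, 0.88, 0.87 and 0.96 in MLN CCR8+. It was the only one of the 13 seen in all 16 libraries and no higher in the heart than in the node.

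The oxygen store myoglobin, Mb, reached 3.51 in heart CCR8- library 3, 3.50 in heart CCR8+ library 3 and 3.87 in heart CCR8+ library 4 and was at 0.29 or less elsewhere. The creatine kinase Ckm was at 3.04 and 3.20 in heart CCR8- libraries 1 and 4 and at 2.21 in heart CCR8+ library 4. The atrial natriuretic peptide Nppa reached 3.55 in heart CCR8- library 4 alone, and Nppb, its ventricular relative, was at 0 in all 8 heart libraries. The myosin heavy chains Myh6 and Myh7, the motor proteins of heart muscle, were both at 0.073 or less in every heart library. Reads of this neighbouring and closely similar pair may be hard to separate, and how such reads were counted was not tested.

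Of the 7 cardiomyocyte genes tested, 0 were called between heart CCR8- and MLN CCR8-, against 2.95% of all genes called higher. Between heart CCR8+ and MLN CCR8+, Tnnt2 alone was called (2.22 ± 0.61, limma adjusted p = 0.0245), against 5.82%. Tnnt2 was at 0 in all MLN libraries and so passed the minimum through heart libraries alone. With no minimum, 0 of the 13 cardiomyocyte genes were called higher between the CCR8+ groups, against 2.75% of all genes. Among the 17 alternatives in which Tnnt2 was tested it kept its call in 13 and lost it in 4, and in the others it was below the minimum, as when a heart CCR8+ library that carried it was left out. Myl2 differed by 3.28 ± 0.99 (limma adjusted p = 0.0646) between the CCR8- groups and by 3.11 ± 0.99 (limma adjusted p = 0.0533) between the CCR8+ groups. The differences of Actc1 and Tnnc1 between the CCR8+ groups were 2.33 ± 0.80 and 2.79 ± 0.98, with limma adjusted p-values of 0.071 and 0.078. Between heart CCR8+ and heart CCR8-, Tnnt2 differed by 1.76 ± 0.61 (limma adjusted p = 0.264) and Tnni3 by -1.99 ± 0.84 (limma adjusted p = 0.374), in opposite directions and neither called. Of the 13 genes, 7 were lower in mean in heart CCR8+ and 5 higher, and 5 were lower and 6 higher without heart CCR8- library 3 and heart CCR8+ library 1. In the node Ttn was the only one of the 36 whose CCR8+ libraries all lay below the CCR8- libraries, where 4.01% of all genes with no minimum did so, and it was not called.

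Most of the muscle genes that reached a value of 1 in a heart library had short transcripts, as did most of the 13 genes of the class. In GENCODE vM21 the longest coding transcript was 721 bases for Tnnc1, 889 for Myl2, 912 for Tnni3, 937 for Myl3, 1473 for Actc1, 6113 for Myh6, 6230 for Myh7 and 106824 for Ttn. Of the 9 genes under 2000 bases, 8 reached a value of 1 in at least 1 heart library, Nppb, at 781 bases, being the exception, and of the 4 longer genes Ckm and Ttn did so. The limit of 2000 bases was chosen after the values were seen. FPKM is already divided by length, and the part of length in these values was not tested.

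**Figure D4:**
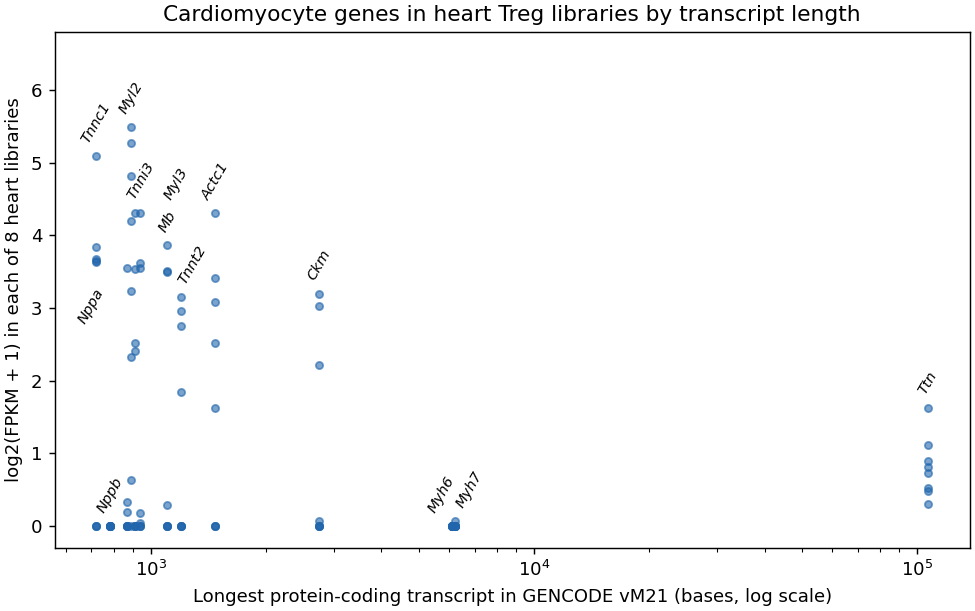
Level of each of the 13 cardiomyocyte genes in the 8 heart libraries (points, log2(FPKM + 1)) against the length of its longest coding transcript in bases (log axis). Genes under 2000 bases reach up to 5.49 (Myl2), while Myh6 and Myh7, at 6113 and 6230 bases, stay at or near 0.

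Genes beyond the 36 were followed in lists of the same cell types. These lists too were chosen with earlier results of these data known, and their calls were counted only with the minimum. Of 40 further fibroblast and matrix genes 19 were tested. Most of these, and most of the further endothelial genes tested, passed the minimum through the heart libraries. Their calls against the node are therefore not evenly set against the share of all genes. Of these, 11 were called higher (0 lower) in heart CCR8- than in MLN CCR8-, against 2.95% of all genes called higher. Among them were the proteoglycan Bgn (6.11), the microfibril protein Mfap5 (5.79), the secreted glycoprotein Fstl1 (5.22) and the matrix protein Cthrc1 (4.82). Between heart CCR8+ and MLN CCR8+ 9 were called higher and 0 lower, against 5.82% of all genes called higher. The largest were Mfap4 (4.17), Bgn (4.09), Cthrc1 (3.99) and the secreted peroxidase Gpx3 (3.78). The median difference over the 40 genes was 1.27 between the CCR8- groups and 0.52 between the CCR8+ groups, and 0 of them were called with CCR8 in the heart or in the node. Cthrc1, which activated fibroblasts secrete in scar, was at 4.64, 4.43, 4.03 and 6.15 in heart CCR8-, at 3.69, 3.28, 3.82 and 5.15 in heart CCR8+, and at 0 in all 8 MLN libraries. Unlike Mgp, Sparc, Lum and Aspn, it was higher in heart CCR8+ library 1 than in library 2 of that group.

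Of 22 further endothelial genes 9 were tested. Tm4sf1 (5.23) and Ecscr (4.06), both of them surface proteins of endothelium, were called higher in heart CCR8- than in MLN CCR8-, against 2.95% of all genes. Rgcc, a cell cycle regulator listed here with endothelium, was called higher in CCR8+ Tregs of the heart than of the node (4.90), and within the node it was lower in CCR8+ Tregs (-3.10). It stood at 7.69 or more in all 8 heart libraries, heart CCR8+ library 1 included. Of 27 further cardiomyocyte genes 8 were tested. Cryab, a small heat shock protein, was called higher in heart CCR8- than in MLN CCR8- (3.16), against 2.95% of all genes. Actn2, the actin cross-linker of the Z disc, was called higher in heart CCR8+ than in MLN CCR8+ (3.01), against 5.82%. Actn2 was at 1.54 to 4.43 in MLN CCR8- and at 4.99 in heart CCR8+ library 1, where 12 of the 13 cardiomyocyte members were at 0.

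The genes whose level over the 16 libraries was most like the fibroblast mean were Fstl1 (r = 0.991), the complement inhibitor Serping1 (0.989), Bgn (0.986), the secreted phosphoprotein Spp1 (0.978) and the metalloproteinase inhibitor Timp1 (0.978), as Pearson correlations. Over the 8 heart libraries alone these were 0.968, 0.974, 0.948, 0.939 and 0.923. Those most like the endothelial mean were the collagen chaperone Serpinh1 (0.963), Sparcl1 (0.958), the metalloprotease Adamts1 (0.943), the cytokine Il6 (0.938) and the endothelial sialomucin Emcn (0.926). These correlations are descriptions, since the libraries share their tissue and heart CCR8- library 3 stands far out in both means.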

How the data were processed

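RNA of about 100 sorted Tregs per library was sequenced from libraries made with the NEBNext Ultra RNA kit, per the labels' protocols. HISAT2 2.0.5 and featureCounts 1.5.0-p3 were used with the mouse build mm10 (GRCm38), per the submitters' processing notes. The deposited table gives FPKM on a log2 scale, read here as log2(FPKM + 1). Its highest value was 14.899 in every library, so the libraries appear to have been scaled to 1 distribution, a step not given in the sources used here. That the sums without the log lay between 1007109 and 1007347 would also fit TPM, and which of these the values are was not settled.

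Of 19219 rows, 24 named as dates were left out, leaving 19195 genes, 1966 of them at 0 in all libraries. With R 4.3.3 and limma 3.58.1, 1 model of the 4 group means took in all 16 libraries, with a variance trend and 12 residual plus 7.01 prior degrees of freedom, and p-values were adjusted over 10369 genes. The procedure was tested on simulated data. Replicate numbers were not taken as pairs. The members and the gene lists were chosen with earlier results of these data known. All 36 members are accounted for. Values in every library are given for the 8 fibroblast, 4 endothelial and 6 cardiomyocyte members with the highest mean over the 16 libraries, and for any member called with CCR8. Of other lists, up to 4 called genes with the largest difference are named, except that called macrophage genes are only counted. Other genes named with values (Cldn5, Vwf, Erg, Rgs5, Mcam, Des, Cspg4, Notch3, Myh11, Pdgfrb, Col4a1, Lyz2, C1qa, Adipoq and Pcolce) were picked after their values were seen. Lists of smooth muscle (0 of 3 tested genes called), lymph node stroma (Pdpn called), macrophage, erythroid and platelet genes (0 of 4 and 0 of 1 called), and mesothelial and adipocyte genes (none tested) were also followed.

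Alternatives were log2(FPKM + 0.1), no filter, a minimum FPKM of 5, a replicate block, factors by median of ratios (0.865 to 1.10), array weights, only the 2 groups compared, and leaving out each library. Leaving out both heart CCR8- library 3 and heart CCR8+ library 1 was added after seeing the data. Coordinates and transcript lengths are from GENCODE vM21 and promoters from RefSeq.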

Additional observations from a re-analysis of the deposited data

Results flagged for a closer look

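In 23 of 69 groups of 4 values examined, over 22 levels, the highest or lowest library lay apart from the other 3. It did so by more of the range of the group than the critical value of Dixon's test. For normally distributed values chance gives about 1 in 20, but many of these groups hold values of 0. A group with 3 values at 0 and 1 above it always passes, so the count cannot be set against that rate. The groups are not independent, since they share libraries, and in 11 of the 23 the whole range was under 1.

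In the heart, library 3 of CCR8- lay above the others of its group in the mean endothelial level (7.71 against 2.63 to 3.20), in Cdh5 (7.18 against at most 0.82), in Kdr (4.33 against at most 0.15) and in Sparc (10.80 against 6.99 to 7.51). Library 1 of heart CCR8+ lay below the others in Mgp (0.60 against 6.92 to 8.13), Postn (0.31 against 4.44 to 5.26) and Tnnc1 (0 against 3.64 to 3.84). Heart CCR8- library 4 stood apart in Myl3 (3.62 against at most 0.18) and heart CCR8+ library 3 in Tnni3 (2.41 against 0).

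In the node, MLN CCR8- library 3 stood apart in Tnni3 (2.91), Fabp4 (0.66), Myl2 (0.43), Aspn (0.23) and Postn (0.13), each against 0 in the others, and in the mean cardiomyocyte level (0.43). MLN CCR8- library 4 stood apart in the mean fibroblast level (0.44), Col1a2 (0.64) and Dpt (0.34), and MLN CCR8- library 1 in Kdr (1.03). MLN CCR8+ library 2 stood apart in Dcn (2.33), Col1a2 (0.62) and the mean fibroblast level (0.24), and MLN CCR8+ library 3 in the mean cardiomyocyte level (0.13).

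The difference of Dpt between CCR8+ and CCR8- Tregs was not the same in both tissues, with an interaction of -3.13 ± 0.65 (limma adjusted p = 0.0351), which was not called in 12 of the 16 fits that left out a library.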

How the results depend on the processing

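The 11 genes called in heart CCR8- against MLN CCR8- kept their calls in every alternative in which they were tested, and leaving out single libraries gave 11 to 13 calls. In heart CCR8+ against MLN CCR8+ the count of 11 became 7 with no filter, 2 with only the 2 groups compared, and 6 to 15 without single libraries. With only the 2 groups, 9 of the 11 reached an FPKM of 1 in fewer than 4 libraries and were not tested, and Dcn and Fabp4 were called. Between heart CCR8+ and CCR8- the call of Dpt was lost (0 calls) with log2(FPKM + 0.1), with an FPKM of 5, with the replicate block, with only the 2 groups and without both heart CCR8- library 3 and heart CCR8+ library 1, and counts were 0 to 1 without single libraries. Its limma adjusted p ranged from 0.0249 to 0.139, with 0.0644 under the replicate block, and Dpt was below the minimum at an FPKM of 5. The interaction gave 0 calls in the same alternatives, except that it cannot be fitted to only 2 groups, and 0 to 1 without single libraries. MLN CCR8+ against MLN CCR8- gave 0 to 0. Libraries with the same replicate number correlated by -0.0933 to 0.0589 in their deviations from the group means. The sources used here do not say whether equal numbers share a mouse, and these correlations cannot decide it.

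With log2(FPKM + 0.1) the mean level became 0.79 for fibroblast and 1.11 for endothelial genes in heart CCR8+, and -0.87 in CCR8- and -0.78 in CCR8+ for cardiomyocyte genes, as a smaller added value lowers every gene at 0. Without single libraries, heart CCR8+ minus heart CCR8- ran from -1.46 to -0.54 for fibroblast, -2.20 to -0.51 for endothelial and -0.20 to 0.46 for cardiomyocyte genes. Without single libraries, the uncalled differences between the heart groups ran from -1.47 to 0.34 for Lum, -0.12 to 1.58 for Tnnc1, -1.20 to 0.75 for Myl2 and -0.35 to 0.094 for Ttn. Of the genes followed under every alternative, uncalled differences between the heart groups changed sign for Lum (0.34 without heart CCR8+ library 1, 0.19 without both), Postn (0.28 without both), Tnnc1 (-0.12 without heart CCR8- library 1 or 2), Myl2 (0.42 without heart CCR8- library 4, 0.75 without heart CCR8+ library 1, 0.70 without both) and Ttn (0.094 without heart CCR8- library 4). Among the other genes, without heart CCR8- library 3, heart CCR8+ library 1 or both, so did Fn1, Fbln1, Col6a2, Thbs2, Kdr, Col3a1 and Loxl1. The cause was not tested. Depth limits what a value of 0 shows, and read numbers are unknown.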

Other observations

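MLN CCR8- library 4 had 14 of the 19 fibroblast genes above 0, against 2 to 7 in the other libraries of its group and 2 to 4 in MLN CCR8+. The highest of them there was Mgp at 1.47, and the mean was 0.44. MLN CCR8- library 3 was the node library in which Tnni3 (2.91), Ckm (1.09), Myl2 (0.43) and Fabp4 (0.66) were all above 0.

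Heart CCR8+ library 1 was not low in every matrix gene. Gpx3 stood there at 3.71 and the procollagen enhancer Pcolce at 3.30, next to Dcn at 3.76 and Cthrc1 at 3.69, while Bgn was at 0 and Fstl1 at 0.58. Over 40 further matrix genes it had 17 above 0 and a mean of 0.64, against 24 to 36 and 1.22 to 2.83 in the other 7 heart libraries.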
